A study of Mus musculus with 24 samples.

Results

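The hearts of 3-week-old mice of the mild MHC-CELFΔ line were set against those of wild type littermates of the same age, over 7 arrays of the 24 in the series. The members were chosen by their labels alone, as the 3 transgenic mice of the mild line at 3 weeks and all 4 wild type mice of that age. Every mouse was a female of strain FVB/N, fed a standard diet and not treated, and total RNA of the whole heart was measured on an Illumina MouseWG-6 v2 BeadChip, with 1 array per mouse. The mild line is MHC-CELFΔ-574, which expresses its transgene at a low level. The transgene codes for a nuclear, dominant negative CELF protein, and its α-myosin heavy chain promoter restricts it to heart muscle cells. Transgenic mice were hemizygous, and each line carries the transgene at an integration site of its own, so the action of the protein and any effect of the site cannot be told apart within 1 line. Of the wild type mice, replicates 1 and 2 came from litters of the severe line (MHC-CELFΔ-10, high-expressing) and replicates 3 and 4 from litters of the mild line. The 3 transgenic mice of the severe line at 3 weeks, and the 5 mild line and 4 wild type mice at 24 weeks, were used only where the mild line at 3 weeks was compared with them.

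CELF proteins bind RNA and control alternative splicing and mRNA stability, and in the heart they take part in the switch from fetal to adult splice forms after birth. Serum response factor (SRF) is a transcription factor of muscle that binds a short AT-rich DNA element, the CArG box, and drives genes of the contractile apparatus and genes that respond rapidly to growth signals. HOPX and FHL2 are cofactors that hold SRF activity back. The study asked why the mild line recovers from its cardiomyopathy with age, and whether SRF-dependent and other transcripts return to normal.

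All values are log2 of the deposited quantile-normalized intensity, and a difference is the mean of the mild line minus that of wild type, so a difference of 1 is a fold of 2. A probe counted as detected where its detection p was under 0.05, and 12011 genes had a probe detected on at least 3 arrays. Between 33.85% and 39.83% of the probes were detected on each of the 7 arrays, and the arrays correlated with one another at 0.973 to 0.994 over these genes. The median raw intensity was 100.8, 100.2 and 76.9 on mild line arrays, against 104.8, 101.2, 71.4 and 75.0 on wild type arrays. Array background and litter therefore cannot be told apart within wild type, since the 2 brighter wild type arrays were those from severe line litters. Heart muscle markers were high on every array, with Myh6 at 14.77 to 14.96 in mild line hearts and 14.46 to 14.79 in wild type hearts. Wild type replicate 3 stood apart in genes of the airway lining, which were looked at after their values had been seen. Scgb1a1, the club cell secretoglobin, read 12.45 there and at most 8.38 on the other 6 arrays. Wfdc2, Cyp2f2, Bpifa1, Scgb3a1 and Sftpd read 8.24 to 10.23 on that array and at most 6.98 on the others. None of the 6 genes was called, and their part in the results was not tested. Without wild type replicate 3, 67 genes were affected, 63 of them among the 70 of all 7 arrays.

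A gene is called here at an adjusted p under 0.05 in limma's test, with Benjamini-Hochberg adjustment over all genes, and it is affected at a fold of 2 or more with that adjusted p or an unadjusted p under 0.001. All 70 affected genes of the main comparison had such an adjusted p. In the mild line 280 genes (2.33% of those tested) were called, 129 of them higher (1.07%) and 151 lower (1.26%), and 70 (0.583%) were affected, 32 higher (0.266%) and 38 lower (0.316%). For all 70 the arrays of both groups did not overlap. Such a separation was found for 1763 genes in all (14.7%). Affected genes that rose had a median difference of 1.21 and those that fell one of -1.31, while the median over all genes was 0.005. A further 210 genes were called with a fold below 2, 97 higher and 113 lower. The mouse with the most weight in these counts was mild line replicate 3, since 48 genes were affected without it. Between 65 and 78 were affected without any of the other 6 mice. Among the brighter arrays, 2 of each group, 52 genes were affected, and 120 were called. Among the dimmer ones, with 1 mild line and 2 wild type arrays, 68 were affected and 50 called, the lone mild line array being assumed to vary like the other groups.

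**Figure D1:**
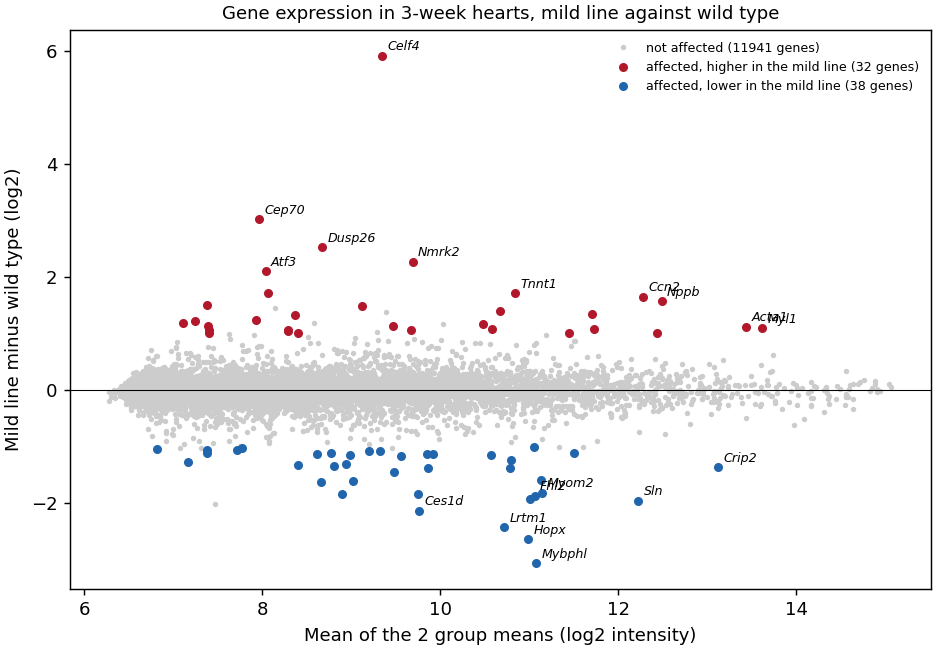
Difference between the mild line (n = 3) and wild type (n = 4) at 3 weeks, as mean log2 of the mild line minus wild type, against the mean log2 intensity of each of 12011 genes. Affected genes are colored, 32 above and 38 below the zero line, and Celf4 lies farthest from it.

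The SRF cofactors Hopx and Fhl2 both fell in mild line hearts. Hopx, a homeodomain-only protein that binds SRF, read 9.90, 10.41 and 8.71 in mild line hearts, against 12.08, 12.41, 12.30 and 12.42 in wild type hearts. Fhl2, a LIM-domain protein, read 10.19, 10.13 and 10.07 in mild line hearts, against 12.16, 11.88, 12.08 and 11.86 in wild type hearts. Neither gene overlapped between the groups, and Fhl2 was the more even of the pair over the mild line mice. The difference was -2.63 ± 0.29 (SE) for Hopx (adjusted p = 6.24e-06) and -1.86 ± 0.31 for Fhl2 (adjusted p = 0.000838). Srf itself read 10.18, 10.23 and 10.46 in the mild line, against 9.95, 9.90, 10.15 and 9.92 in wild type. Its arrays did not overlap, and its difference of 0.31 ± 0.11 was not called (adjusted p = 0.190). Abra, an actin-binding protein that activates SRF through its cofactors, rose by 1.07 (adjusted p = 0.00176), with 10.04, 9.99 and 10.59 in mild line hearts, against 9.20, 8.96, 9.30 and 9.09 in wild type hearts. Among 13 measured genes for SRF, its inhibitors and its cofactors, these 3 were called, against 2.33% of all genes. The list had a median of 0.02.

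Of 28 measured SRF target genes, 5 rose and 1, Fhl2, fell, where 1.07% of all genes were called higher and 1.26% lower. The median of the list was 0.27 against 0.005 over all genes. The study names several of these targets, and its analyses include these mice, so their direction here is no independent evidence. For 11 of the 28 the mild line lay above wild type without overlap, as for 7.58% of all genes. Ccn2, a matricellular growth factor, read 12.87, 12.94 and 13.52 in mild line hearts, against 11.25, 11.55, 11.64 and 11.38 in wild type hearts. Nppb, which codes for B-type natriuretic peptide, read 13.10, 13.32 and 13.40 in the mild line, against 11.42, 11.87, 11.77 and 11.74 in wild type. Acta1, the skeletal α-actin of the fetal heart, read 14.11, 13.68 and 14.22 in the mild line, against 12.67, 13.01, 12.85 and 12.97 in wild type. All 3 were separated by more than the spread of either group. The differences were 1.66 ± 0.24 for Ccn2, 1.58 ± 0.22 for Nppb and 1.12 ± 0.18 for Acta1, with adjusted p of 0.000148, 0.000107 and 0.000671. Egr3, an early growth response factor, rose by 1.72 ± 0.25 (adjusted p = 0.000172), with 8.99, 8.61 and 9.16 in mild line hearts, against 7.17, 7.19, 7.32 and 7.14 in wild type hearts. Rcan1, an inhibitor of calcineurin, rose by 0.84 ± 0.22 (adjusted p = 0.0403), less than 2-fold, and read highest in mild line replicate 3 at 12.02. Under scaling to a common median 3 of the 28 targets were called higher and none lower, and the median of the list was 0.31. With array weights, or with the replicate number as a block, 9 were called higher and 2 lower. In the labels the wild type mice are numbered 1 and 2 within each line. Mild line replicate 3 therefore adds nothing to the difference in the block fit.

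The other SRF targets were not called. Fos read 10.08, 8.64 and 7.92 in mild line hearts, against 7.91, 7.56, 7.29 and 6.89 in wild type hearts, and its difference of 1.46 ± 0.51 rested mainly on mild line replicate 1 (adjusted p = 0.177). Egr1 was likewise highest in that mouse, with 12.30, 10.92 and 10.53 in the mild line, against 11.05, 10.28, 10.13 and 10.32 in wild type (adjusted p = 0.415). Fhl1, a LIM-domain protein of striated muscle, differed by 0.60 with an adjusted p of 0.209, and its arrays did not overlap. Tpm2 (0.33), Junb (0.33), Actc1 (-0.08) and Acta2 (0.18) were not called. Myh7, the slow β-myosin heavy chain, read 7.88, 8.28 and 7.87 in the mild line, against 7.78, 8.14, 7.91 and 8.07 in wild type, and its groups overlapped throughout.

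**Figure D2:**
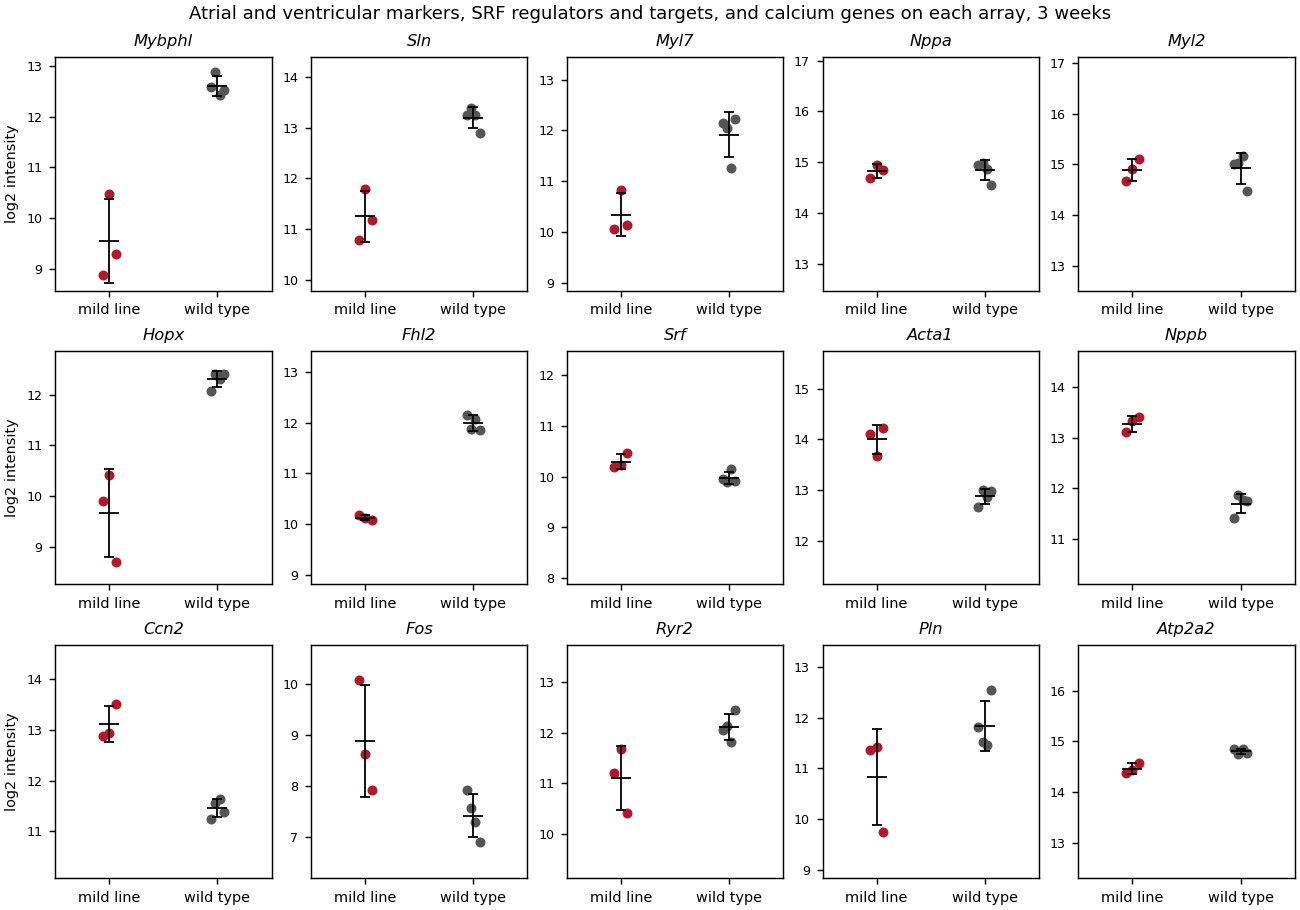
Log2 intensity of 15 genes on each array of the mild line (left, n = 3) and of wild type (right, n = 4) at 3 weeks, with the mean and SD of each group. Mybphl, Sln, Myl7, Hopx and Fhl2 lie lower in every mild line heart, Acta1, Nppb and Ccn2 higher, and Nppa and Myl2 overlap.

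A CArG box was searched for by name, both strands being alike, in RefSeq promoter windows of 300 bases (250 before to 50 after a transcript start, mouse build GRCm38.p6), of which 1.63% of 32851 held one. Among tested genes with a window, 1.73% of 9662 held one. It was found for 8 of 22 SRF target genes with a window, for 1 of 23 affected genes that rose and for 3 of 24 that fell. The affected genes are shown because they lie on both sides of the comparison, Acta1 higher and Fhl2, Hopx and Myl7 lower. Each line gives the 250 bases before the start on the minus strand, with the CArG box in capitals.
Acta1, chr8:123894776-123895025: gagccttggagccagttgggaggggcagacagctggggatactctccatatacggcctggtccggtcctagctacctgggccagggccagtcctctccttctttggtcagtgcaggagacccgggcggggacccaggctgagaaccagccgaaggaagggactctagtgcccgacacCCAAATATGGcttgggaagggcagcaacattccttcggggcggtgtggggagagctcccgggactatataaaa
Fhl2, first start, chr1:43196762-43197011: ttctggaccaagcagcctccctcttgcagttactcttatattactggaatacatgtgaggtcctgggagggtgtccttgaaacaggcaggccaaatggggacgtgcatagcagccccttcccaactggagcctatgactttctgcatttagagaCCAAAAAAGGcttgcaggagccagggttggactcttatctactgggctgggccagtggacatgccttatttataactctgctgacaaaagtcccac
Fhl2, second start, chr1:43163962-43164211: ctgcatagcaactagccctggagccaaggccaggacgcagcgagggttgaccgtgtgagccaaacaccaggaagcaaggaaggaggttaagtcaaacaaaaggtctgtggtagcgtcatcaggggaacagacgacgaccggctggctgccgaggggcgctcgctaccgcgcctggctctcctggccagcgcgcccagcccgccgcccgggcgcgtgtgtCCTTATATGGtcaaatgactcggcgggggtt
Hopx, chr5:77115124-77115373: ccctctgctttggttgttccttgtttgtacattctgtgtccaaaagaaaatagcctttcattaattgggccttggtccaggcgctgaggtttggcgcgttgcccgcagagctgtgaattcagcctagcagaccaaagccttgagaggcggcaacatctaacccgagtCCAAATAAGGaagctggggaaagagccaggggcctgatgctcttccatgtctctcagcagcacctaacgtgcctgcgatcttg
Myl7, chr11:5898783-5899032: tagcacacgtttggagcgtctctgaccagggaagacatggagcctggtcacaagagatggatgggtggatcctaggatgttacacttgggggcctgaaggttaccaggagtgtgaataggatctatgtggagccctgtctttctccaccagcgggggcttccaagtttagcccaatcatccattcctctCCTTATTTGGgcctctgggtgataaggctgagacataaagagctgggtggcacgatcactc
The box begins 73 bases before the start in Acta1, 96 and 31 in Fhl2, 83 in Hopx and 61 in Myl7. A match describes the letters and is not a measured binding site. The array gave some view of the Fhl2 starts, since 1 of its 2 probes matched bases 1 to 50 after the first start. That probe averaged 6.74 in the mild line and 7.30 in wild type, a difference of -0.55 ± 0.24 that was not called (adjusted p = 0.408 over all kept probes), and the brighter probe above was used for the gene.

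Several genes of atrial muscle fell, while ventricular markers overlapped between the groups. Of 16 measured atrial genes, 6 fell and none rose, with a median of -0.33, while 1.26% of all genes were called lower. The groups did not overlap, with the mild line lower, for 9 of the 16, where 7.10% of all genes did so. Mybphl, a myosin-binding protein most abundant in atria, read 8.87, 10.47 and 9.30 in mild line hearts, against 12.59, 12.88, 12.43 and 12.52 in wild type hearts. Its difference of -3.06 ± 0.28 was an 8.34-fold fall (adjusted p = 4.31e-07), the steepest fall among affected genes. Sln, the sarcolipin that restrains the calcium pump in atria, read 10.79, 11.78 and 11.18 in the mild line, against 13.25, 13.39, 13.25 and 12.90 in wild type, and fell 3.86-fold (-1.95 ± 0.24, adjusted p = 1.75e-05). Both genes were highest in mild line replicate 2, still below every wild type heart.

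Myl7, the atrial regulatory light chain, read 10.05, 10.83 and 10.13 in mild line hearts, against 12.13, 12.04, 11.25 and 12.23 in wild type hearts (-1.58 ± 0.39, adjusted p = 0.0280). Hamp, the iron hormone hepcidin, which atrial muscle also expresses, read 8.36, 9.24 and 8.90 in mild line hearts, against 10.46, 10.83, 10.58 and 10.81 in wild type hearts (-1.83 ± 0.49, adjusted p = 0.0484). These were the least secure of the atrial calls, since Myl7 was called in 2 and Hamp in 0 of 7 fits that left out 1 mouse. With the arrays scaled to a common median in place of quantile normalization, 2 of the 16 atrial genes were called, and the median of the list was -0.32. Dkk3, a secreted Wnt modulator, fell by 1.12 ± 0.18 (adjusted p = 0.000662) and Gja5, the connexin of atria and conduction fibers, by 0.93 ± 0.13 (adjusted p = 0.000152). Gja5 read 7.65, 7.67 and 7.52 in mild line hearts, against 8.56, 8.78, 8.52 and 8.30 in wild type hearts.

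The other atrial genes were not called. Nppa, which codes for atrial natriuretic peptide, read 14.68, 14.94 and 14.85 in mild line hearts, against 14.94, 14.99, 14.87 and 14.55 in wild type hearts, near the top of the scale. Myl4, the atrial essential light chain, read 13.70, 14.29 and 14.36 in the mild line, against 14.49, 14.52, 14.50 and 14.50 in wild type, with a difference of -0.38 (adjusted p = 0.298). Like Myl4, Stard10 (-0.77) and Bmp10 (-0.27) lay below every wild type heart. Tbx5 (0.11), Nr2f2 (0.14) and Kcnj5 (0.09), a pair of atrial transcription factors and an atrial potassium channel, overlapped between the groups. All 5 ventricular genes lay between -0.03 and 0.04, with Myl2 at 14.67, 14.90 and 15.11 in the mild line, against 15.01, 15.04, 15.16 and 14.47 in wild type. The summed level of the atrial list was 15.48 to 15.93 in mild line hearts and 16.14 to 16.38 in wild type hearts. In RNA of whole hearts, fewer cells of a type and less RNA per cell cannot be told apart, and the share of atrial tissue in each sample was not tested. Corin, the protease that activates natriuretic peptide precursors, fell by 1.37 ± 0.15 (adjusted p = 6.24e-06), with 10.11, 10.40 and 9.77 in mild line hearts, against 11.63, 11.41, 11.33 and 11.49 in wild type hearts.

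Calcium cycling genes of the sarcoplasmic reticulum were called in both directions. Of 22 measured genes 1 rose and 2 fell, Sln being one of the falls, with a median of -0.10. Over all genes 1.07% were called higher and 1.26% lower. The list summed to 15.71 to 15.79 in mild line hearts and 16.15 to 16.22 in wild type hearts. For 8 of the 22 the mild line lay below wild type without overlap, as for 7.10% of all genes. Casq1, the calsequestrin of skeletal muscle, rose by 0.81 ± 0.15 (adjusted p = 0.00232), with 8.11, 8.00 and 8.42 in mild line hearts, against 7.64, 7.32, 7.15 and 7.36 in wild type hearts. Itpr2, an inositol trisphosphate receptor, fell by 0.69 ± 0.16 (adjusted p = 0.0199). Without mild line replicate 1, mild line replicate 3 or wild type replicate 2, or under scaling to a common median, 1 gene of the list was called lower, and that scaling called none higher. There were 4 called lower with only the 7 arrays in the fit, with the replicate number or the run of 6 arrays as a block and with array weights. Ryr2, the release channel of heart muscle, read 11.21, 11.69 and 10.42 in mild line hearts, against 12.05, 12.13, 11.81 and 12.45 in wild type hearts. Its arrays did not overlap and its fold was 2, but its difference of -1.01 ± 0.29 was not called (adjusted p = 0.0775). Pln, phospholamban, the inhibitor of the calcium pump, read 11.35, 11.41 and 9.74 in the mild line, against 11.82, 11.51, 11.46 and 12.54 in wild type (-1.0 ± 0.45, adjusted p = 0.392). The lowest value, of mild line replicate 3, lay far below those of the other mild line mice, which read just under the lowest wild type heart. Atp2a2, the pump itself, read 14.37, 14.45 and 14.58 in mild line hearts, against 14.85, 14.75, 14.85 and 14.77 in wild type hearts, a small separation that was not called (-0.34 ± 0.09, adjusted p = 0.0511).

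Contractile genes changed in single members, mostly isoforms of fetal or skeletal muscle. Of 15 measured genes in a list of fetal and slow skeletal isoforms 4 rose and none fell. The median was 0.01, and 1.07% of all genes were called higher and 1.26% lower. The 4 were Tnnt1, Myl1, Acta1 and Nppb, of which Nppb, a natriuretic peptide gene, is not contractile. Tnnt1, the slow skeletal troponin T, read 11.56, 11.64 and 11.91 in mild line hearts, against 9.60, 10.03, 10.42 and 9.87 in wild type hearts (1.72 ± 0.26, adjusted p = 0.000308). Myl1, the skeletal alkali light chain, read 14.03, 13.97 and 14.49 in the mild line, against 13.07, 13.00, 13.13 and 13.07 in wild type (1.10 ± 0.15, adjusted p = 7.23e-05). Of the cardiac sarcomere, 1 of 23 genes rose and 1 fell. Myom2, the M-band protein of fast muscle, fell by 1.81 ± 0.31 (adjusted p = 0.00120), with 10.37, 11.22 and 9.13 in mild line hearts, against 11.85, 12.44, 11.91 and 12.01 in wild type hearts. Mybpc2, the fast isoform of myosin-binding protein C, rose by 0.73 ± 0.17 (adjusted p = 0.0218). Mylk2, the skeletal myosin light chain kinase, was detected on all 3 mild line arrays, at 7.71, 7.71 and 7.72, and on no wild type array, and was at least 2.01-fold higher (adjusted p = 1.75e-05).

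At the Z-disc, the anchor of the actin filaments, and the intercalated disc, 6 of 29 genes rose and none fell, with a median of 0.14. Over all genes 1.07% were called higher. Pdlim1, a PDZ and LIM protein that binds α-actinin, read 12.25, 12.03 and 12.83 in mild line hearts, against 10.90, 11.08, 11.15 and 10.97 in wild type hearts (1.35 ± 0.17, adjusted p = 2e-05). Myot, the Z-disc protein myotilin, rose by 1.22 (adjusted p = 0.00237), and 1 of 4 wild type arrays detected it. Flnc, filamin C, rose by 0.88 (adjusted p = 0.00483), Xirp2, an actin-binding repeat protein, by 1.01 (adjusted p = 0.00755), Synpo by 0.73 (adjusted p = 0.00304) and Synpo2l by 1.05 (adjusted p = 0.0262). All 6 were highest in mild line replicate 3, and 2 of the 29 were called without that mouse, as under scaling to a common median. A further probe of Xirp2 differed by 0.52 ± 0.23 (adjusted p = 0.431 over all kept probes). Core members such as Actn2 (0.12), Ldb3 (0.19) and Vcl (0.07) were not called.

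Among 21 immediate early genes, which cells switch on within minutes of a stimulus, Egr3 and Atf3 rose and none fell. The median was 0.52, and 1.07% of all genes were called higher. Without mild line replicate 3, 4 of the 21 were called higher, as among the brighter arrays, while none was called among the dimmer ones. There were 5 called higher with only the 7 arrays in the fit, 12 with array weights and 13 with the replicate number as a block. Atf3, a stress-induced repressor, read 9.23, 9.20 and 8.84 in mild line hearts, against 7.13, 6.86, 6.83 and 7.12 in wild type hearts (2.10 ± 0.31, adjusted p = 0.000185). The list summed to 13.71 to 14.43 in mild line hearts and 13.38 to 13.60 in wild type hearts, and the highest sum was that of replicate 1 with its high Fos. Of 30 heat shock proteins and cochaperones 4 rose and none fell, with a median of 0.19, while 1.07% of all genes were called higher. Hspa1a, an inducible HSP70, read 7.54, 8.44 and 8.41 in mild line hearts, against 6.69, 6.68, 6.48 and 6.63 in wild type hearts, of which 1 array detected it (1.51 ± 0.30, adjusted p = 0.00443). Hspa1b, of the same list, differed by 0.11 ± 0.11 and was not called (adjusted p = 0.822). Hspa1l rose by 1.02 ± 0.16 (adjusted p = 0.000345), Hspb3, a small heat shock protein of muscle, by 0.63 ± 0.11 (adjusted p = 0.00142) and the cochaperone Bag3 by 0.49 ± 0.12 (adjusted p = 0.0297). Of the 30, 2 were called higher under scaling to a common median or against the wild type mice of the severe line alone, and 1 among the dimmer arrays. There were 7 with runs of 6 arrays blocked, 8 in a fit of the 7 arrays alone and 9 with array weights. Neither the 18 genes of the unfolded protein response, with a median of -0.06, nor the other 21 of the integrated stress response than Atf3 held a call.

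Genes of fatty acid oxidation lay lower in the mild line, with 4 of 30 called lower, none higher and a median of -0.29. The share called lower was 1.26% over all genes. The sign was negative for 27 of the 30, and for 14 the mild line lay below wild type without overlap (7.10% of all genes did so). Acot1, a cytosolic acyl-CoA thioesterase, read 8.20, 8.59 and 7.86 in mild line hearts, against 9.66, 9.12, 9.23 and 9.33 in wild type hearts (-1.12 ± 0.26, adjusted p = 0.0160). Acadvl, the very long chain dehydrogenase, read 12.17, 12.36 and 11.91 in the mild line, against 12.85, 12.91, 12.92 and 12.94 in wild type (-0.76 ± 0.17, adjusted p = 0.0103). Cpt2 and Slc25a20, which carry acyl groups into mitochondria, fell by 0.75 ± 0.14 (adjusted p = 0.00237) and 0.73 ± 0.18 (adjusted p = 0.0243). The gate of that transport, Cpt1b, differed by -0.09 and the transporter Cd36 by -0.09, and neither was called. None of the 30 genes was called lower under scaling to a common median, where these 4 differed by -0.67 to -1.08. Against the wild type mice of the mild line alone 0 were called lower as well, with a list median of -0.28. Among the brighter arrays the count was also 0, with a median of -0.25. It was 1 against the wild type mice of the severe line alone or without mild line replicate 3. With the mean of a gene's probes, or without mild line replicate 1 or wild type replicate 1, it was 2. There were 7 with the replicate number as a block, and 8 with only the 7 arrays in the fit or with array weights. Of 21 genes of triacylglycerol storage and lipolysis 2 fell, led by Ces1d, a lipase of the carboxylesterase family, with 8.50, 9.17 and 8.39 in mild line hearts, against 10.89, 10.88, 10.77 and 10.73 in wild type hearts (-2.13 ± 0.35, adjusted p = 0.000674).

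Sugar and amino acid metabolism changed in a few enzymes. Pdp2, a phosphatase that activates pyruvate dehydrogenase, read 10.29, 10.28 and 9.98 in mild line hearts, against 11.49, 11.46, 11.26 and 11.42 in wild type hearts (-1.23 ± 0.21, adjusted p = 0.000854). Fbp2, the fructose bisphosphatase of muscle, fell by 1.32 ± 0.26 (adjusted p = 0.00404), and Pfkp, the platelet-type phosphofructokinase, rose by 1.02 ± 0.25 (adjusted p = 0.0250), the call for Pfkp being kept in 3 of 7 fits without 1 mouse. Of 31 genes of glucose use these were the 3 called, against 2.33% of all genes. A further probe of Pfkp differed by 0.39 ± 0.13 (adjusted p = 0.210 over all kept probes). Of 23 genes of amino acid breakdown 3 fell and none rose, while 1.26% of all genes were called lower. Gpt, an alanine aminotransferase, fell by 1.07 ± 0.18 (adjusted p = 0.000699), while Ppm1k and Dbt, which act on the branched-chain keto acid complex, differed by -0.87 (adjusted p = 0.00554) and -0.61 (adjusted p = 0.0451). No call was made among 77 genes of the respiratory chain and ATP synthase (median -0.09), 73 of the mitochondrial ribosome (-0.15) or 19 of the tricarboxylic acid cycle (-0.14).

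Nmrk2, the muscle form of nicotinamide riboside kinase, which makes an NAD precursor, was measured by 3 probes that did not move alike. The main probe read 10.83, 9.92 and 11.73 in mild line hearts, against 8.78, 8.79, 8.30 and 8.33 in wild type hearts (2.28 ± 0.40, adjusted p = 0.00131). Its mild line mice were spread widely, all of them above wild type. A further probe differed by 1.92 ± 0.39 (adjusted p = 0.00849 over all kept probes), and the third, with means of 8.01 in the mild line and 8.17 in wild type, by -0.15 ± 0.15 (adjusted p = 0.889). The 2 probes that rose are shown, on chromosome 10, since the result holds for their sequence.
Nmrk2, main probe: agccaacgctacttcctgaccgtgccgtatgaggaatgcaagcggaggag
Nmrk2, further probe: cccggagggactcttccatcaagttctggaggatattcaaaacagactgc
Naprt, of a parallel route to NAD, fell by 0.83 ± 0.16 (adjusted p = 0.00368). Over the affected genes, 28 other probes were detected on all arrays of a group, and 27 of them differed in the same direction as the main probe, 18 with a call.

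Ion channels and connexins were called only lower, with 3 of 18 potassium channels and 3 of 11 sodium and calcium channels and connexins. Over all genes 1.26% were called lower. Abcc8, the sulfonylurea receptor that forms the atrial ATP-sensitive potassium channel in mice, read 7.17, 7.42 and 6.97 in mild line hearts, against 8.33, 8.13, 8.14 and 8.34 in wild type hearts (-1.05 ± 0.14, adjusted p = 5.4e-05). Kcnv2, a silent voltage-gated subunit, read 6.75, 6.96 and 6.85 in the mild line, against 8.17, 7.83, 7.93 and 7.68 in wild type (-1.05 ± 0.15, adjusted p = 9.65e-05). Kcnd2, of the transient outward current, fell by 0.91 ± 0.23 (adjusted p = 0.0359). Gja1, the main connexin of working muscle, read 12.52, 12.79 and 12.23 in mild line hearts, against 13.10, 13.01, 13.28 and 13.04 in wild type hearts (-0.59 ± 0.11, adjusted p = 0.00348). Cacna1g, a T-type calcium channel of pacemaker and conduction tissue, fell by 0.54 ± 0.09 (adjusted p = 0.000573). With Gja5, 3 genes of the last list were thus lower, and of the 11 none was called lower under scaling to a common median and 5 with array weights.

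Celf4, a member of the CELF family, read 12.29, 12.30 and 12.32 in mild line hearts, against 6.35, 6.33, 6.49 and 6.35 in wild type hearts, where no array detected it. It thus stood at least 48.4-fold above wild type (adjusted p = 3.11e-15). RNA of the transgene and of the gene itself cannot be told apart at this probe, and the 3 other kept probes of Celf4 differed by 0.03, -0.05 and 0.00. Those 3 averaged 6.55 to 6.68 in the groups, and each was detected on at most 1 mild line and 1 wild type array. At that level they cannot tell whether the gene itself changed. Celf1 and Celf2, the CELF genes of the heart, differed by -0.15 (adjusted p = 0.770) and 0.46 (adjusted p = 0.0330). Of 16 regulators of muscle splicing 2 fell and none rose, while 1.26% of all genes were called lower. Rbfox1, a splicing factor of muscle and brain, read 10.08, 10.35 and 9.71 in mild line hearts, against 11.80, 11.88, 12.18 and 12.00 in wild type hearts (-1.92 ± 0.22, adjusted p = 1.03e-05). Qk, the quaking RNA-binding protein, fell by 0.44 ± 0.09 (adjusted p = 0.00959).

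Cep70, a centrosomal protein that binds γ-tubulin, was detected in every mild line heart and in no wild type heart, at 9.50, 9.58 and 9.36 in the mild line, against 6.20, 6.62, 6.47 and 6.50 in wild type (at least 6.84-fold higher, adjusted p = 3.11e-15). The probe that read it, on chromosome 9, is shown because this difference was seen in a single transgenic line.
Cep70: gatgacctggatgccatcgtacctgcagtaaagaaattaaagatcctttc
Of 25 measured genes of tubulins, microtubules and cilia Cep70 alone rose and 2 fell. The median was 0.13, and 1.07% of all genes were called higher and 1.26% lower. Ttll1, a tubulin polyglutamylase, read 7.85, 7.91 and 7.79 in mild line hearts, against 9.44, 9.23, 9.80 and 9.41 in wild type hearts (-1.62 ± 0.21, adjusted p = 3.16e-05). Ift81, a subunit of the transport particle of cilia, read 9.19, 9.27 and 9.05 in the mild line, against 10.72, 10.35, 10.50 and 10.62 in wild type (-1.38 ± 0.12, adjusted p = 6.91e-08). Outside that list Whrn, a scaffold known from the inner ear, read 8.06, 7.99 and 7.89 in mild line hearts, against 9.90, 9.80, 10.02 and 9.55 in wild type hearts (-1.84 ± 0.14, adjusted p = 1.38e-08). In all 3 genes the mild line mice lay close together, far from every wild type mouse. Crip2, a cysteine-rich LIM protein of heart and vessels, also fell, with 12.43, 12.76 and 12.13 in mild line hearts, against 13.79, 13.86, 13.77 and 13.77 in wild type hearts (-1.36 ± 0.13, adjusted p = 4.47e-07).

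Phosphatases and their regulators moved in both directions. Dusp26, a dual-specificity phosphatase, read 9.86, 9.76 and 10.19 in mild line hearts, against 7.51, 7.46, 7.35 and 7.30 in wild type hearts, a 5.78-fold rise (2.53 ± 0.18, adjusted p = 6.16e-09). Of a pair of inhibitors of protein phosphatase 1, Ppp1r1a rose and Ppp1r1b fell. Ppp1r1a read 8.87, 8.76 and 8.83 in the mild line, against 7.69, 8.00, 7.57 and 7.74 in wild type (1.07 ± 0.14, adjusted p = 3.16e-05). Ppp1r1b was detected in no mild line heart, at 6.56, 6.47 and 6.56, against 7.97, 7.98, 7.88 and 7.38 in wild type hearts, at least 2.15-fold lower (adjusted p = 4.45e-06). The calcineurin subunits Ppp3ca (-0.02), Ppp3cb (0.02) and Ppp3r1 (0.16) were not called. Nuak1, a kinase of the AMPK family, rose by 1.40 ± 0.16 (adjusted p = 8.86e-06), with 11.13, 11.30 and 11.67 in mild line hearts, against 9.80, 10.14, 10.12 and 9.80 in wild type hearts.

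Matrix genes and markers of other cells showed few calls, and 2.33% of all genes were called. Of 20 collagens 1 rose, with a median of 0.30, and for 11 the mild line lay above wild type without overlap (7.58% of all genes did so). The count called higher was 3 with the replicate number as a block, 4 with runs of 6 arrays blocked, and 5 with array weights or in a fit of the 7 arrays alone. Col26a1, a little-studied collagen, was the one called, with 8.66, 8.45 and 8.54 in mild line hearts, against 7.13, 7.42, 7.27 and 7.38 in wild type hearts (1.25 ± 0.12, adjusted p = 5.74e-07). Col1a1 (0.33) and Col3a1 (0.46), the main collagens of fibrous tissue, were not called. Of 36 further matrix genes only Mfap5 was called (0.70, adjusted p = 0.0489). In the CCN and TGF-β list, Ccn4 fell by 0.60 (adjusted p = 0.00704) while Ccn2 and Tgfb3 rose. Of 16 fibroblast markers 12 had a positive sign and 1, Mfap5, was called, while Col1a2 (0.28) and Lum (0.65) lay above wild type without overlap. The fibroblast markers Pdgfra (0.19), Tcf21 (0.08) and Dcn (0.09) and the endothelial markers Pecam1 (0.01), Cdh5 (0.00) and Kdr (0.14) overlapped between the groups. All 19 genes of macrophages had a negative sign with none called (median -0.19), and they summed to 12.90 to 13.17 in mild line hearts and 13.08 to 13.38 in wild type hearts. Red cell genes summed to 16.71 to 16.74 in mild line hearts and 16.38 to 16.68 in wild type hearts, with none of 7 called. Of 17 markers of smooth muscle and pericytes Cspg4 rose (0.51, adjusted p = 0.0105), and of 7 of nerve and glia Dbh fell (-0.77, adjusted p = 0.00153). Markers of lymphocytes, thymus, fat and epicardium held no call, and Upk3b, of the epicardium, differed by -0.89 (adjusted p = 0.0805). Mylpf, a defining gene of skeletal muscle, differed by 0.06, while Myl1 and 1 other gene of that list rose. The part of these cell types in the results was not tested. Over 55 lists of genes, 19 had no member called, among them ribosomal proteins, proteasome subunits and the cell cycle.

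**Figure D3:**
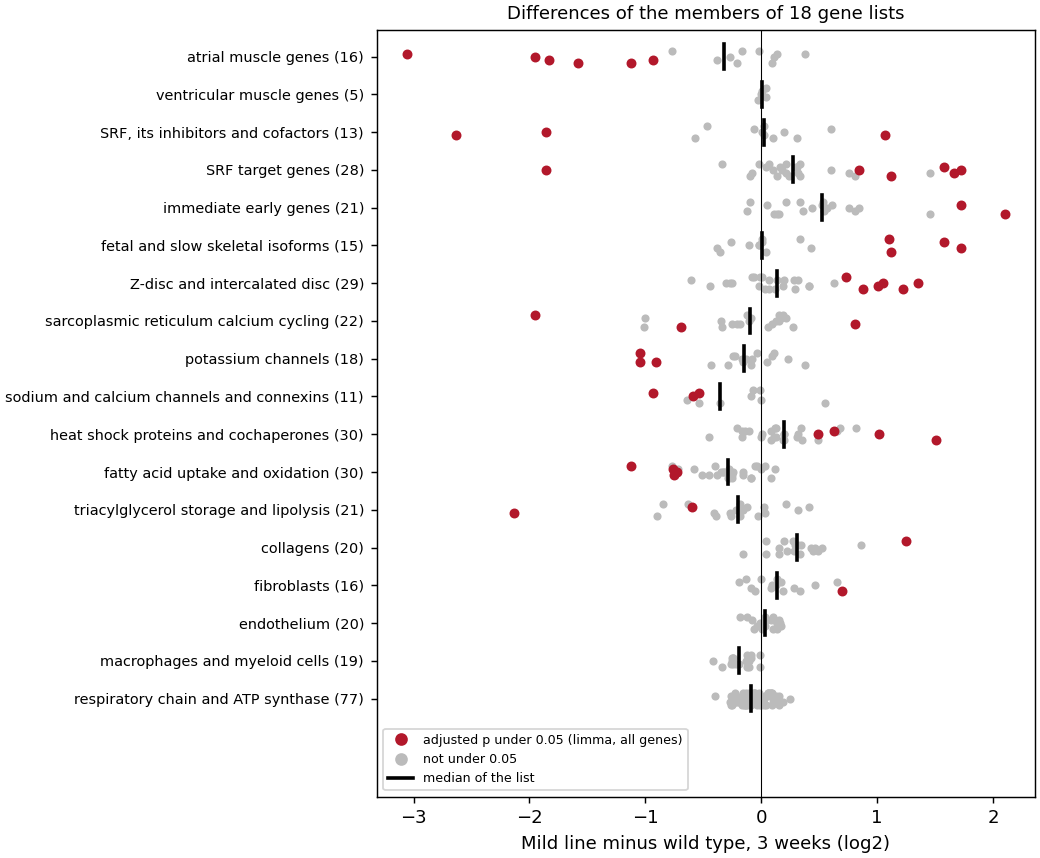
Log2 difference, mild line (n = 3) minus wild type (n = 4) at 3 weeks, for every measured member of 18 gene lists, with called members in red and the median of each list as a bar. Atrial genes reach -3.06 with no called member above 0, while ventricular genes lie between -0.03 and 0.04.

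Several further affected genes fit none of these lists. Serpina3n, an acute phase protease inhibitor, read 8.54, 8.66 and 9.07 in mild line hearts, against 10.68, 10.68, 9.88 and 9.55 in wild type hearts (-1.44 ± 0.23, adjusted p = 0.000597). Within wild type, replicates 1 and 2, from litters of the severe line, were the higher. Spsb4, an adaptor of a ubiquitin ligase, rose by 1.48 ± 0.21 (adjusted p = 0.000106), and Tnfrsf12a, the receptor of the cytokine TWEAK, by 1.14 ± 0.20 (adjusted p = 0.00142). A further probe of Spsb4 differed by 0.60 ± 0.21 (adjusted p = 0.226 over all kept probes). Lamb3, a laminin chain of epithelia, fell by 1.12 ± 0.18 (adjusted p = 0.000479). Cntn2, a cell adhesion molecule that marks the conduction system, read 8.48, 8.69 and 8.07 in mild line hearts, against 9.33, 9.70, 9.61 and 9.63 in wild type hearts (-1.15 ± 0.26, adjusted p = 0.0129). Sox4, a transcription factor of heart development, fell by 1.07 ± 0.20 (adjusted p = 0.00237), with no overlap between 8.52 to 8.75 in mild line hearts and 9.45 to 9.94 in wild type hearts. Fah, the last enzyme of tyrosine breakdown, fell by 1.12 ± 0.22 (adjusted p = 0.00474). Haus8, of the augmin complex that nucleates microtubules in the spindle, rose by 1.33 ± 0.21 (adjusted p = 0.000479), with 8.71 to 9.41 in mild line hearts, against 7.44 to 8.06 in wild type hearts. Slc1a1, a glutamate transporter, rose by 1.13 ± 0.26 (adjusted p = 0.0149), and its 4 wild type mice lay within 6.80 to 6.86, while mild line replicate 3 reached 8.63. No gene was called between the wild type mice of the 2 lines with limma. An unadjusted p under 0.05 was found for 240 of 12011 genes, fewer than that threshold alone would give by chance. With 2 mice from each line, this cannot show that the litters are alike.

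The mild line was next set against the severe line at 3 weeks, without the wild type mice, to find where the affected genes differ between lines. Of all genes 69 were called (0.574%), 15 higher (0.125%) and 54 lower (0.450%) in the mild line. Of the 38 affected genes that fell, 14 were called lower in the mild than in the severe line and none higher. Of the 32 that rose, 3 were called higher and 2 lower. Since these genes were picked for their distance from wild type in the same mild line mice, these counts favor the mild line being the more extreme. When 1 mild line mouse was left out, 30 to 38 genes were called. Under scaling to a common median, which moved the median of all genes to -0.110, 1 gene was called higher and 37 lower in the mild line.

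The lines were farthest apart in Cep70 and Mybphl. Cep70 read 9.50, 9.58 and 9.36 in the mild line, against 6.49, 6.40 and 6.50 in the severe line (3.02 ± 0.11, adjusted p = 1.68e-14), the level of wild type. Mybphl read 8.87, 10.47 and 9.30 in the mild line, against 12.28, 12.90 and 11.81 in the severe line (-2.79 ± 0.30, adjusted p = 1.96e-05). Severe line hearts overlapped with wild type in both genes. Hopx read 9.90, 10.41 and 8.71 in the mild line, against 11.42, 12.28 and 11.29 in the severe line (-1.99 ± 0.31, adjusted p = 0.00153), and Sln differed by -1.65 ± 0.25 (adjusted p = 0.00108). For Fhl2 the difference between the lines was -0.95 ± 0.33 (adjusted p = 0.40) and for Myl7 -1.21 ± 0.42 (adjusted p = 0.365), neither of which was called. Tnnt1 ran the other way, with 11.56, 11.64 and 11.91 in the mild line, against 14.01, 13.15 and 14.25 in the severe line (-2.10 ± 0.28, adjusted p = 0.000221), so that it rose less in the mild line. Ppp1r1a also rose less in the mild line, by 0.70 ± 0.15 (adjusted p = 0.0230). Pcp4l1 and Scgb1c1, the latter a secretoglobin, were higher in the mild line by 1.06 ± 0.14 (adjusted p = 0.000183) and 0.89 ± 0.16 (adjusted p = 0.00591). The SRF targets Acta1 (0.09), Nppb (-0.20) and Ccn2 (-0.53) were not called between the lines.

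**Figure D4:**
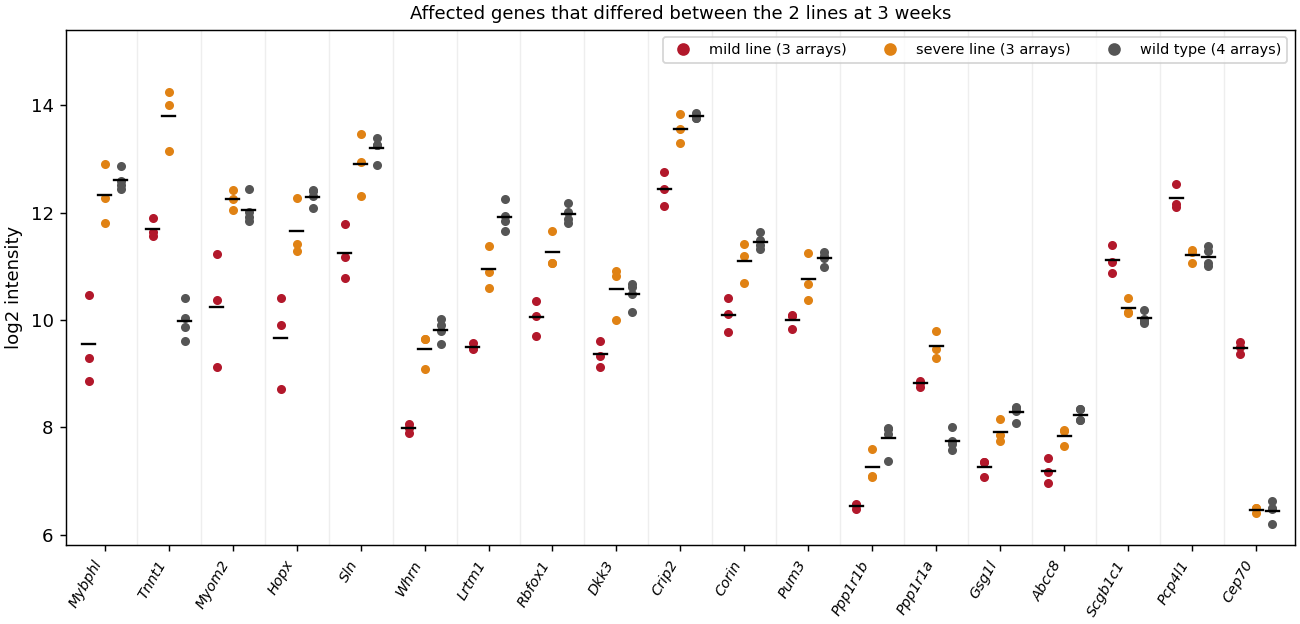
Log2 intensity of the 19 affected genes called between the lines at 3 weeks, on each array of the mild line (n = 3), severe line (n = 3) and wild type (n = 4), with bars at the means. Cep70 is raised in mild line hearts alone, and Tnnt1 is highest in severe line hearts.

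For age, the difference from wild type at 24 weeks was set against that at 3 weeks. Of all genes 8 changed (0.0666%), 2 of them affected at 3 weeks. Affected genes were picked for their difference at 3 weeks, which enters this change, so a smaller difference at 24 weeks is favored for them. Col26a1 was no longer higher at 24 weeks, when it was detected on no wild type array, and its difference changed by -1.18 ± 0.16 (adjusted p = 0.00211). Lrtm1, a leucine-rich repeat membrane protein, read 9.48, 9.57 and 9.46 in mild line hearts at 3 weeks, against 11.94, 11.85, 12.26 and 11.65 in wild type hearts. At 24 weeks it averaged 11.11 ± 0.24 (SD, n = 5) in mild line hearts, and its difference shrank by 1.48 ± 0.25 (adjusted p = 0.0114). That call was lost under scaling to a common median and without mild line replicate 1 or 3, where no gene had a called change above 0. Atf3 differed by 2.10 at 3 weeks and 0.00 at 24 weeks, with a change of -2.10 ± 0.41 just outside the threshold (adjusted p = 0.0506). Egr3 (-1.51 ± 0.33, adjusted p = 0.134), Hspa1a (-1.67 ± 0.40, adjusted p = 0.257) and Serpina3n (1.46 ± 0.31, adjusted p = 0.110) were not called for their change. The differences of Celf4 (-0.12 ± 0.28), Cep70 (-0.16 ± 0.14) and Acta1 (0.54 ± 0.25) had no called change. Of the affected genes of 3 weeks, 14 of the 32 that rose and 22 of the 38 that fell were called at 24 weeks too, where 0.966% of all genes were called.

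**Figure D5:**
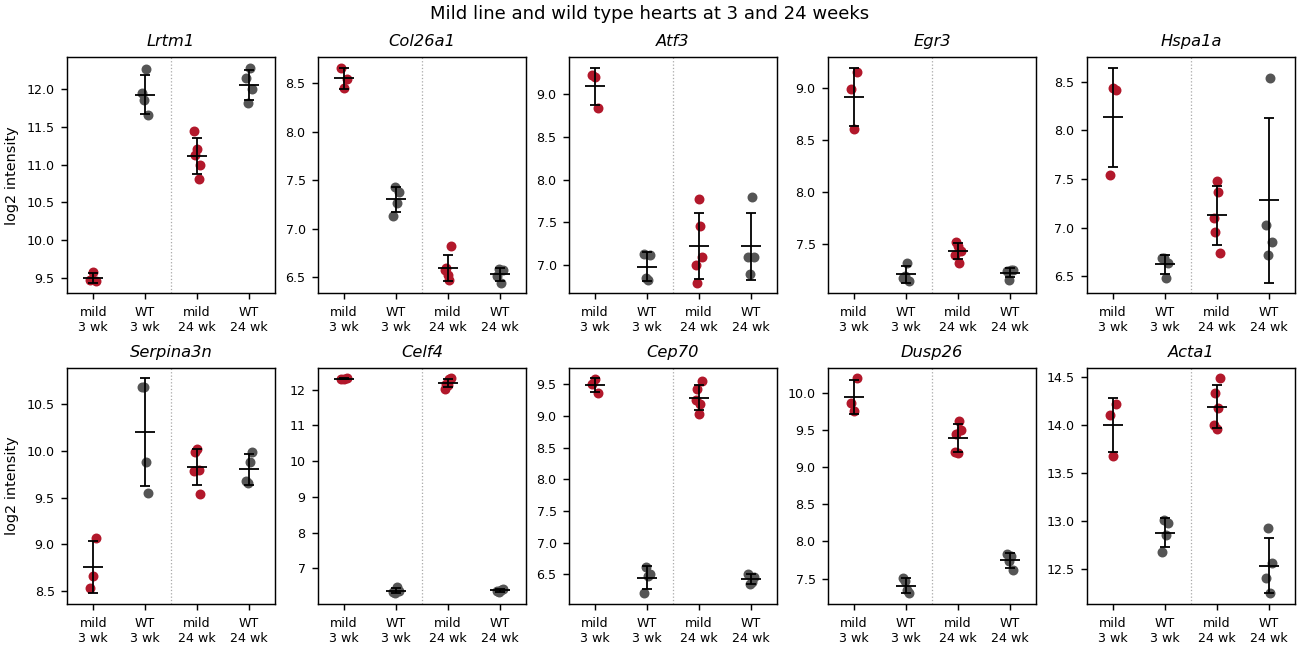
Log2 intensity of 10 affected genes in mild line and wild type hearts at 3 weeks (n = 3 and 4) and 24 weeks (n = 5 and 4), 1 point per array, with the mean and SD of each group. At 24 weeks the group means lie close together for Col26a1, whose change was called, and for Atf3, whose change was not. The gap persists for Celf4, Cep70, Dusp26 and Acta1.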

How the data were processed

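RNA from 24 whole hearts was measured with 1 array per mouse, and 7 of these arrays form the main comparison. As deposited by the authors, the intensity values are bead summaries of each probe before any normalization. In a second deposited set the authors had brought the 24 arrays to a common distribution by quantile normalization and taken log2, without visible background subtraction, so changes of dim genes are understated. The deposited detection p-value tells how far a probe stood above negative controls on the same array. The scanner and its software were not given in the sources used here. No use was made of 48 other columns of per-sample values.

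Groups, litter and age came from the source names and characteristics of the samples, and nothing beyond these labels ties a mouse to a batch. Of 45281 probes, 22663 passed a detection p of 0.05 on 3 or more arrays, and 18907 of the passing probes carried 1 symbol by the annotation of the platform. The brightest probe over all arrays stood for a gene, which left 12011 genes. All 6 groups of line and age were fitted in 1 model with limma 3.58.1 (R 4.3.3, lmFit and eBayes). The same fit gave the contrasts of the mild with the severe line and of 24 with 3 weeks. Adjustment for multiple tests was by Benjamini-Hochberg over all genes of a contrast. The thresholds of the methods define an affected gene, with a fold of at least 2 and either an adjusted p below 0.05 or an unadjusted p below 0.001. The number of arrays limits the precision. Where no array of a group detected a gene, a bound is given, for which the mean of the brighter group was set against the dim group, each of its arrays entering with its lowest detected value or that of the probe, whichever was higher.

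Any affected gene could be named. Values on each array were given for the largest rises and falls, for genes that the paper names and for affected members of gene lists, of which up to 4 members were named. The members and lists were chosen with earlier results of these data known. Median scaling of the raw intensities, normexp background correction (offset 50), other filters, probe rules and variance models, blocks, subsets of arrays and leaving out each mouse were tried. The fit was tested on simulated data. Replicate numbers of the labels were not treated as pairs. Promoter and gene tables came from RefSeq, and genes on chromosome 18 are named without sequence.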

Additional observations from a re-analysis of the deposited data

Results flagged for a closer look

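In the wild type hearts of 3 weeks, each affected gene was screened for a mouse far from the other 3, which chance alone also produces now and then. Of 70 genes, 2 were found. Ppp1r1b read 7.38 in wild type replicate 4, against 7.88 to 7.98 in the other wild type hearts, still above the mild line. Synpo2l read 7.97 in wild type replicate 1, against 7.68 to 7.72 in the other wild type hearts, below every mild line heart.

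Affected genes whose level differed between the mild and the severe line at 3 weeks, by the test of that difference in limma, numbered 19. In the mild line Cep70 was higher by 3.02, Pcp4l1 by 1.06 and Scgb1c1 by 0.89. Tnnt1 (-2.10) and Ppp1r1a (-0.70) were higher than wild type in both lines, and lower in the mild than in the severe line. The other 14 had fallen in the mild line and lay lower there than in the severe line. Mybphl (-2.79), Myom2 (-2.01), Hopx (-1.99) and Sln (-1.65) were the farthest apart. Whrn (-1.47), Lrtm1 (-1.45), Rbfox1 (-1.22), Dkk3 (-1.22), Crip2 (-1.12) and Corin (-1.01) followed. Pum3 (-0.76), Ppp1r1b (-0.72), Abcc8 (-0.66) and Gsg1l (-0.66) differed by less than 1. In the severe line Myom2 read 12.06, 12.43 and 12.26, against 11.85 to 12.44 in wild type, and Dkk3 read 10.82, 10.91 and 10.00, against 10.15 to 10.68 in wild type.

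Between 3 and 24 weeks, the difference from wild type changed by -1.18 in Col26a1 and by 1.48 in Lrtm1, the affected genes for which this change was called. The call for Lrtm1 was lost under median scaling and without mild line replicate 1 or 3.

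Among probes without a single gene symbol, which no comparison of genes used, 9 of 3756 (0.240%) were affected in the mild line at 3 weeks, 2 higher and 7 lower. The steepest averaged 7.81 in the mild line and 10.07 in wild type, a difference of -2.27 ± 0.19 (adjusted p = 8.48e-08). A probe detected on all 3 mild line arrays and on 0 of 4 wild type arrays averaged 7.80 in the mild line and 6.51 in wild type.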

How the results depend on the processing

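The count of 70 affected genes stayed within 1.5 times under all 22 alternatives, from 48 (without mild line replicate 3) to 78 (without mild line replicate 2), and 25 of the 70 were called under every one. Median scaling left 51. The 280 genes called by adjusted p were less stable. Median scaling left 65, 37 higher and 28 lower, against 129 and 151. There were 517 with only the 7 arrays in the fit, 777 with array weights, 120 among the arrays numbered 1 to 12 and 50 among those numbered 13 to 24. With the wild type mice of the mild line only, 140 were called, and with those of the severe line only, 151. Leaving out 1 mouse gave 152 to 225, with 152 without mild line replicate 3 and 181 without mild line replicate 1. With the replicate number as a block in the fit of the 7 arrays, 437 genes were called, 227 of them among the 280, and 57 were affected. The labels number the wild type mice 1 and 2 within each line, so this block leaves mild line replicate 3 out of the difference. Same-numbered mice did not deviate together (correlations of -0.286 to 0.326), so the numbers were not used as pairs.

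Between the lines, 69 genes were called, 38 with median scaling (1 higher and 37 lower in the mild line, against 15 and 54), 269 with array weights, and 30, 38 and 32 without mild line replicate 1, 2 and 3. The change with age was called for 8 genes, 3 with median scaling, 14 with array weights, 15 with the run of 6 arrays as a block, and 5 to 10 when 1 mouse was left out, 5 without mild line replicate 1. A fit of the 7 arrays alone gives no value for these comparisons. Directions turned only in genes with differences near 0. Myh7 gave -0.02 with the run of 6 as a block, -0.12 in arrays 13 to 24 and -0.10 to 0.11 without 1 mouse. Phlda1 gave -0.27 in arrays 13 to 24, -0.04 with wild type mice of the mild line only and -0.07 to 0.20 without 1 mouse. Klk1b26 gave -0.08 as the mean of its probes, -0.13 in arrays 13 to 24, -0.01 with wild type mice of the mild line only and -0.01 to 0.11 without 1 mouse. Celf1 gave 0.10 in arrays 13 to 24. The causes were not tested.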

Other observations

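A total of 80 genes had a fold of 2 or more, and 10 of these were not called. Irs2, an adaptor of insulin signaling, read 9.46, 11.28 and 9.52 in mild line hearts, against 8.66, 8.72, 9.03 and 8.41 in wild type hearts (1.38 ± 0.57, adjusted p = 0.307), with mild line replicate 2 far above the others. Dpysl3, a protein of growing neurons, was the nearest to the threshold, with 10.46, 10.73 and 10.65 in mild line hearts, against 9.21, 9.54, 9.67 and 9.33 in wild type hearts (1.18 ± 0.32, adjusted p = 0.0514). Cebpb, a transcription factor of stress and fat cells, differed by 1.03 (adjusted p = 0.128), and Ifi27l2a, an interferon-induced gene, by -1.02 (adjusted p = 0.0958).

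Adipoq, the fat cell hormone adiponectin, read 6.75, 6.68 and 6.97 in mild line hearts, against 8.61, 8.08, 7.46 and 7.16 in wild type hearts (-1.03 ± 0.56, adjusted p = 0.540). The mild line lay below wild type throughout, and the wild type mice were spread widely. Of 10 measured genes of fat cells none was called.

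The period gene Per2 differed by 1.18 (adjusted p = 0.145), and none of 14 genes of the circadian clock was called. Alas2 and Slc4a1, of red cells, differed by 0.88 and 0.89, also without a call.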
